A study of Populus qamdoensis and Populus schneideri with 18 samples.

Results

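The 4 genes described here encode enzymes of starch synthesis and breakdown, and they are 4 of the 39194 genes in the deposited expression table. They are Pyun09G011970, the large subunit 1 of glucose-1-phosphate adenylyltransferase (ADP-glucose pyrophosphorylase, AGPase), Pyun04G011470, the plastidial glucan phosphorylase (L isozyme), Pyun02G020430, isoamylase 2, and Pyun10G021480, pullulanase 1. They were chosen by their annotation from the starch and sucrose genes that the study had listed as differentially expressed between films in *P. qamdoensis*. The *P. qamdoensis* film contrasts therefore selected these genes and are given below as a description, without a test, whereas the study's list was made without the *P. schneideri* libraries, although earlier results from both species were known when these 4 genes were picked from it.

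Leaves of cuttings of 2 poplars, *P. qamdoensis* and *P. schneideri*, were sequenced, with 3 libraries for each film in each species and 18 libraries in all. Potted *P. qamdoensis* cuttings, propagated from trees of a natural forest, grew in a greenhouse under a translucent colorless film (WF), a blue film (BF) or a green film (GF), and leaves of 3 plants per film were sampled. For *P. schneideri* the labels give only white, blue or green quality, which is read here as the same films, and the plants' age and time under the films are not known. The study's methods speak of clonal lines of *P. qamdoensis*, but which line each library came from is not given. The colorless film is the control, and every *P. qamdoensis* plant grew under a film. As nothing states that replicates of *P. schneideri* were separate plants, its p-values measure only the spread between libraries.

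Leaves store part of the carbon fixed in the day as starch in the chloroplast and break it down at night. AGPase makes ADP-glucose, the glucosyl donor of starch synthases, and is widely regarded as the main point of control of starch synthesis; its large subunit mainly sets the regulatory properties of the enzyme. Glucan phosphorylase adds or removes glucose units at chain ends in a reversible reaction with glucose 1-phosphate. Isoamylases and pullulanase are debranching enzymes that cut the branch points of glucans. In *Arabidopsis*, isoamylase 2 has no activity of its own and acts together with isoamylase 1 while amylopectin is made, and pullulanase acts in starch breakdown as well as in trimming during synthesis.

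Values are FPKM, in which fragments are divided by the length of the gene and by the mapped fragments of each library, so levels can be compared between genes. The number of fragments behind a value is unknown. The leaf label was checked on 3 antenna protein genes, whose summed level ran from 284 to 925 FPKM in *P. qamdoensis* and from 292 to 817 FPKM in *P. schneideri*. BF replicate 1 of *P. qamdoensis* stood apart, with a median Pearson r over genes of 0.861 with the other 8 libraries of its species, against 0.940 to 0.979 for those libraries. In *P. schneideri* these medians ran from 0.964 to 0.978. The *P. qamdoensis* libraries also differed in GC content, and 4 of them, WF replicates 2 and 3 together with BF replicates 1 and 2, form a class above a GC content of 0.45 by the study's library table. Because these are bulk leaf samples, fewer cells with a transcript and less transcript per cell cannot be told apart.

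In both species the AGPase large subunit and the glucan phosphorylase had their highest mean under WF. Isoamylase 2 did so only in *P. schneideri*, and pullulanase 1 in neither species. Glucan phosphorylase had the highest FPKM of the 4 genes in each of the 18 libraries, and its species mean lay above 95.0% of the genes tested in *P. qamdoensis* and above 93.4% in *P. schneideri*. The AGPase large subunit lay above 71.7% and 71.0% of genes, pullulanase 1 above 74.6% and 82.0%, and isoamylase 2 above 42.0% and 48.1%. All 4 genes passed the filter on low values (a mean of at least 0.5 FPKM) in both species.

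**Figure D1:**
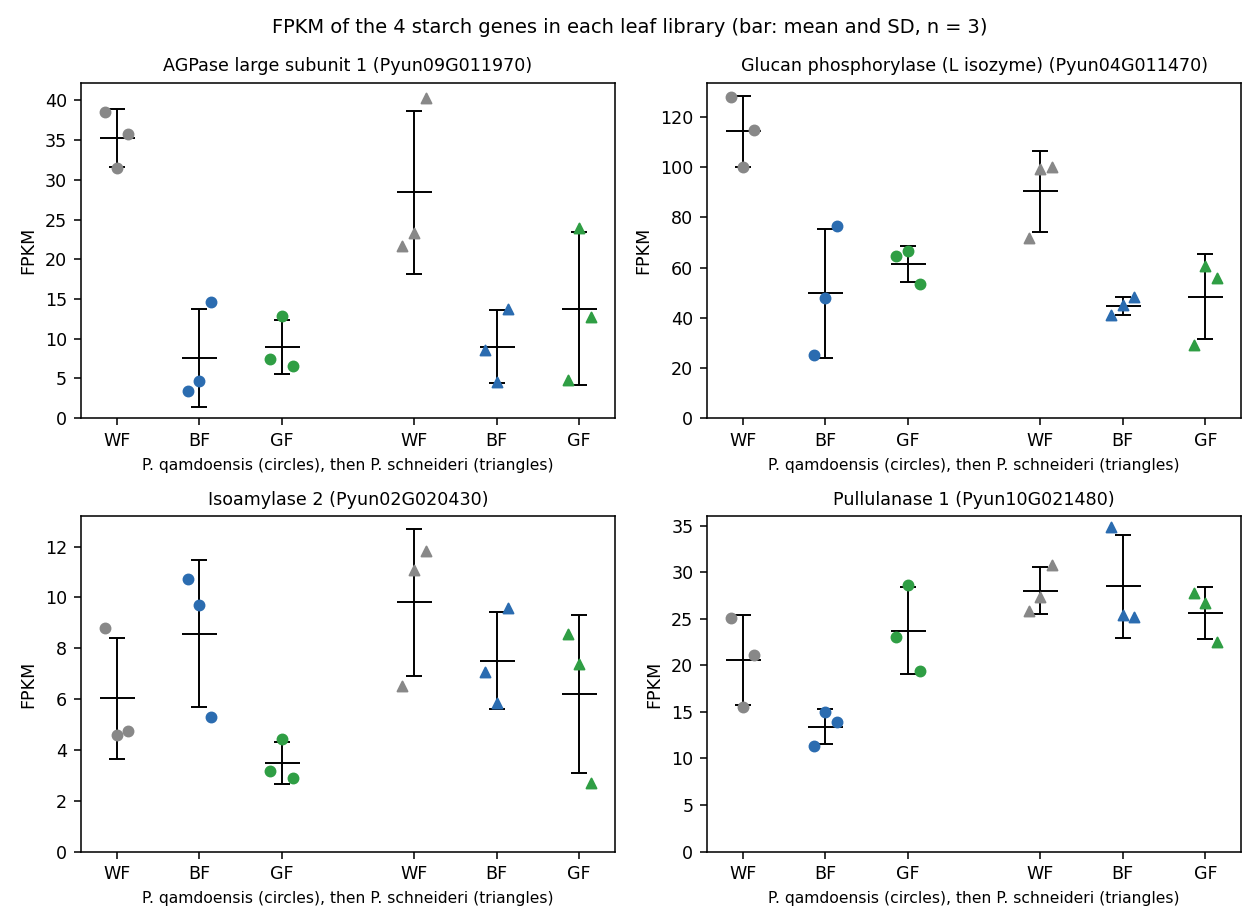
FPKM (vertical axes) of the 4 starch genes in each leaf library, by film and species; points are libraries and bars give the mean and SD of 3. Under WF the AGPase large subunit averaged 35.3 FPKM in *P. qamdoensis* and 28.4 FPKM in *P. schneideri*, above its means under BF and GF, and glucan phosphorylase was ordered likewise, whereas isoamylase 2 and pullulanase 1 had different orders in the 2 species.

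The AGPase large subunit gene Pyun09G011970 was measured at 38.6, 31.5 and 35.8 FPKM in the *P. qamdoensis* libraries under WF. Under BF its values were 3.45, 4.62 and 14.6 FPKM, and under GF they were 7.41, 12.8 and 6.55 FPKM. All 6 colored-film libraries lay below all WF libraries, and BF and GF overlapped, with BF replicate 3 the highest of the colored-film libraries. The means were 35.3 ± 3.59 FPKM under WF, 7.57 ± 6.16 under BF and 8.93 ± 3.41 under GF (SD, n = 3). On the log2(FPKM + 1) scale the difference was −2.30 (SE 0.431) for BF minus WF, −1.92 for GF minus WF and −0.39 for BF minus GF.

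In *P. schneideri* Pyun09G011970 was again highest under WF, but the spread within films was wide. Its values were 21.7, 23.4 and 40.2 FPKM under WF, 8.64, 4.58 and 13.7 FPKM under BF and 4.76, 23.9 and 12.7 FPKM under GF. The BF libraries lay below the WF libraries, while GF replicate 2 fell within the WF range. The means were 28.4 ± 10.3 FPKM under WF, 8.99 ± 4.59 under BF and 13.8 ± 9.64 under GF (SD, n = 3). By limma the log2 difference for BF minus WF was −1.62 (SE 0.489, unadjusted p = 0.00737, Benjamini-Hochberg adjusted p = 0.174). For GF minus WF it was −1.18 (limma, unadjusted p = 0.0355, adjusted p = 0.373), and for BF minus GF it was −0.44 (limma, adjusted p = 0.948). None of these passed the threshold, which is an adjusted p below 0.01 together with a fold change of at least 1.5. The GF value rested on single libraries, being −0.62 without GF replicate 1, −1.67 without GF replicate 2 and −0.43 when limma weighted libraries by their spread.

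A second gene, Pyun04G015050, carries the same annotation as AGPase large subunit 1 and was expressed at a lower level than Pyun09G011970 in each of the 18 libraries. In *P. qamdoensis* it was measured at 3.18, 3.10 and 2.88 FPKM under WF, 1.88, 1.92 and 1.58 FPKM under BF and 1.76, 1.78 and 1.49 FPKM under GF. In *P. schneideri* it was measured at 5.80, 6.50 and 4.71 FPKM under WF, 2.74, 1.82 and 2.97 FPKM under BF and 1.76, 4.55 and 4.16 FPKM under GF. As with Pyun09G011970, WF held the highest values, and for Pyun04G015050 every colored-film library lay below every WF library in both species. The study chose Pyun04G015050 too on its *P. qamdoensis* libraries, so the values there are a description. In *P. schneideri* 17.2% of all genes lay wholly below WF under BF and 13.3% under GF. In *P. schneideri* limma gave a log2 difference of −0.93 (SE 0.256, unadjusted p = 0.00407, adjusted p = 0.148) for BF minus WF and −0.63 (unadjusted p = 0.0329, adjusted p = 0.364) for GF minus WF, neither past the threshold. How reads shared by such similar genes were counted is not given, so the division of signal between Pyun09G011970 and Pyun04G015050 is uncertain.

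**Figure D2:**
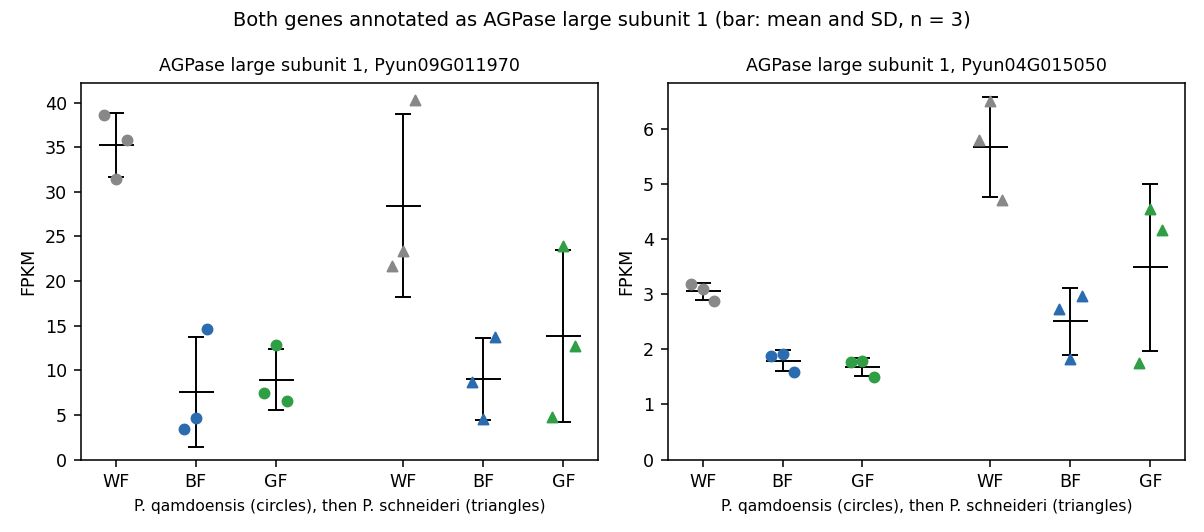
FPKM (vertical axes, on different ranges) of both genes annotated as AGPase large subunit 1 in each leaf library; points are libraries and bars give the mean and SD of 3. Both genes were highest under WF in both species, Pyun09G011970 at 35.3 and 28.4 FPKM and Pyun04G015050 at 3.05 and 5.67 FPKM in *P. qamdoensis* and *P. schneideri*.

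Glucan phosphorylase, Pyun04G011470, was measured at 128, 99.97 and 115 FPKM under WF in *P. qamdoensis*. Under BF it was at 25.3, 47.7 and 76.4 FPKM, and under GF at 64.6, 66.7 and 53.3 FPKM. The colored-film libraries lay below the WF libraries, and the BF libraries ran from below to above all GF libraries. The means were 114 ± 14.1 FPKM under WF, 49.8 ± 25.6 under BF and 61.5 ± 7.22 under GF (SD, n = 3). The log2 difference was −1.31 (SE 0.330) for BF minus WF, −0.88 for GF minus WF and −0.43 for BF minus GF.

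In *P. schneideri* glucan phosphorylase was measured at 71.9, 99.1 and 100.1 FPKM under WF, 41.1, 45.1 and 48.3 FPKM under BF and 29.0, 60.5 and 55.7 FPKM under GF. Every BF and GF library lay below every WF library, and the GF libraries enclosed the BF libraries. The means were 90.4 ± 16.0 FPKM under WF, 44.8 ± 3.60 under BF and 48.4 ± 17.0 under GF (SD, n = 3). By limma the log2 difference was −0.98 (SE 0.241, unadjusted p = 0.00197, adjusted p = 0.128) for BF minus WF and −0.94 (unadjusted p = 0.00264, adjusted p = 0.150) for GF minus WF, neither past the threshold. The BF minus GF difference was −0.04 (limma, adjusted p = 0.989). An exact permutation test that enumerated all 280 divisions of the 9 libraries into 3 films gave p = 0.0393 for glucan phosphorylase, unadjusted and one of 4 such tests, where the smallest possible p was 0.00357. The same exact test gave p = 0.146 for Pyun09G011970, 0.379 for isoamylase 2 and 0.668 for pullulanase 1. The BF minus WF difference of glucan phosphorylase passed the threshold in limma without GF replicate 1 (adjusted p = 0.00992), in a fit of only the 6 BF and WF libraries (adjusted p = 0.00901) and with library weights (adjusted p = 0.00663), and its adjusted p ran up to 0.423 under the other settings.

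Isoamylase 2, Pyun02G020430, had a different film order in the 2 species. In *P. qamdoensis* it was measured at 10.7, 9.71 and 5.28 FPKM under BF, 8.79, 4.57 and 4.73 FPKM under WF and 3.16, 4.44 and 2.88 FPKM under GF. The GF libraries lay below all others, and BF and WF overlapped. The means were 8.58 ± 2.90 FPKM under BF, 6.03 ± 2.39 under WF and 3.50 ± 0.832 under GF (SD, n = 3), with log2 differences of 0.45 (SE 0.302) for BF minus WF, −0.61 for GF minus WF and 1.06 for BF minus GF.

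In *P. schneideri* isoamylase 2 was measured at 6.50, 11.1 and 11.8 FPKM under WF, 7.07, 5.84 and 9.59 FPKM under BF and 8.55, 7.37 and 2.69 FPKM under GF. The ranges of all 3 films overlapped, and GF replicate 3 held the lowest value. The means were 9.81 ± 2.88 FPKM under WF, 7.50 ± 1.91 under BF and 6.21 ± 3.10 under GF (SD, n = 3). By limma the log2 difference was −0.33 (SE 0.339, adjusted p = 0.676) for BF minus WF, −0.66 (adjusted p = 0.476) for GF minus WF and 0.33 (adjusted p = 0.944) for BF minus GF. None was called, and leaving out single libraries moved the first from −0.57 (WF replicate 1) to −0.19 (BF replicate 2) and the second from −0.92 (GF replicate 1) to −0.23 (GF replicate 3).

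Pullulanase 1, Pyun10G021480, was lowest under BF in *P. qamdoensis*, at 11.3, 14.9 and 13.9 FPKM. It was measured there at 25.1, 15.5 and 21.1 FPKM under WF and at 23.1, 28.6 and 19.4 FPKM under GF. The BF libraries lay below all WF and GF libraries, and WF and GF overlapped. The means were 13.4 ± 1.88 FPKM under BF, 20.6 ± 4.83 under WF and 23.7 ± 4.66 under GF (SD, n = 3), with log2 differences of −0.57 (SE 0.205) for BF minus WF, 0.20 for GF minus WF and −0.77 for BF minus GF.

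In *P. schneideri* pullulanase 1 varied little among films. It was measured at 25.9, 27.3 and 30.8 FPKM under WF, 34.8, 25.4 and 25.2 FPKM under BF and 27.7, 26.7 and 22.5 FPKM under GF. All 3 films overlapped, and the means of 28.0 ± 2.55, 28.5 ± 5.50 and 25.6 ± 2.77 FPKM (SD, n = 3) under WF, BF and GF differed by less than the SD under BF. By limma the log2 difference was 0.01 (SE 0.143, adjusted p = 0.981) for BF minus WF, −0.13 (adjusted p = 0.765) for GF minus WF and 0.14 (adjusted p = 0.945) for BF minus GF.

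**Figure D3:**
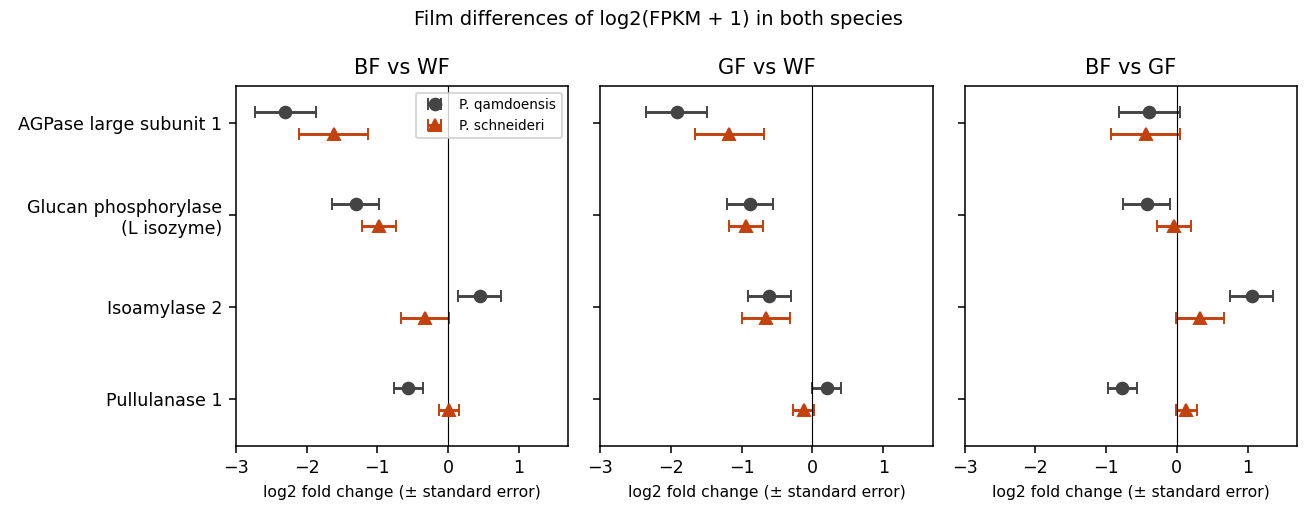
Log2 differences of FPKM + 1 between films (horizontal axes) for the 4 starch genes; circles are *P. qamdoensis*, triangles *P. schneideri*, and bars the limma standard error. In *P. schneideri* the AGPase large subunit and glucan phosphorylase lay at −1.62 and −0.98 for BF minus WF and pullulanase 1 at 0.01; no member passed the threshold in limma, with an unadjusted p under 0.05 for 2 of 4 in BF and in GF against WF.

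Over the 4 genes together, limma called 0 of 4 in *P. schneideri* for BF minus WF, where 0.0252% of the 23821 genes tested were called. At an unadjusted p under 0.05, 2 of 4 differed, the AGPase large subunit and glucan phosphorylase, against 15.6% of all genes. For GF minus WF limma called 0 of 4, against 0.042% of all genes, and 2 of 4, the same pair, had an unadjusted p under 0.05, against 12.1%. For BF minus GF limma called 0 of 4, against 0% of all genes, and 0 of 4 had an unadjusted p under 0.05, against 6.49%. The moderated F test over the 3 films called 0 of 4, against 0.0294%, with an unadjusted p of 0.0195 for the AGPase large subunit and 0.00293 for glucan phosphorylase (limma, adjusted p = 0.275 and 0.158). Libraries under BF lay wholly below those under WF for 2 of 4 genes, against 17.2% of all genes, and libraries under GF wholly below WF for 1 of 4, glucan phosphorylase, against 13.3%. The median log2 difference of the 4 genes was −0.66 for BF minus WF and −0.80 for GF minus WF, beside −0.04 and −0.07 over all genes tested. Both comparisons share the WF libraries. Calls of the 4 genes in *P. qamdoensis* are not given, since its film contrasts selected them.

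The order of mean levels differed by gene. For the AGPase large subunit, WF of *P. qamdoensis* and WF of *P. schneideri* came first and BF of *P. qamdoensis* last, and the libraries of every pair of neighbors in the order overlapped. For glucan phosphorylase, WF of both species came first, the libraries of WF in *P. schneideri* lay apart from the next group but overlapped BF of *P. qamdoensis*, and the other means ran from 61.5 FPKM under GF in *P. qamdoensis* to 44.8 FPKM under BF in *P. schneideri*, each overlapping the next. For isoamylase 2, the only neighbors that did not overlap were WF and GF of *P. qamdoensis*, at the low end of the order. For pullulanase 1, BF of *P. qamdoensis* stood last and apart from its neighbor, WF of the same species.

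Within *P. qamdoensis*, films could be compared inside a GC class only in part, since no GF library lay in the high class. In the high class, with 2 libraries per film, the AGPase large subunit averaged 4.04 FPKM under BF and 33.6 under WF, glucan phosphorylase 36.5 and 107 FPKM, isoamylase 2 10.2 and 4.65 FPKM and pullulanase 1 13.1 and 18.3 FPKM. In the low class, with 1 library each under BF and WF, the AGPase large subunit was at 14.6 FPKM under BF and 38.6 under WF, glucan phosphorylase at 76.4 and 128 FPKM and pullulanase 1 at 13.9 and 25.1 FPKM. Isoamylase 2 went the other way there, with 5.28 FPKM under BF and 8.79 FPKM under WF. With the GC class as a term, the BF minus GF difference became 0.23 for the AGPase large subunit and 0.03 for glucan phosphorylase, so its direction turned. GC contents of the *P. schneideri* libraries were not used here.

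The AGPase large subunit and glucan phosphorylase were the most alike pair among the 4 genes. After the mean of each species was subtracted, log2(FPKM + 1) of the AGPase large subunit had a Pearson r of 0.922 with glucan phosphorylase over the 18 libraries, the highest among the 14341 genes whose mean reached 5 FPKM in both species. The r was 0.945 in *P. qamdoensis* and 0.889 in *P. schneideri*, and in *P. schneideri* alone glucan phosphorylase ranked 33rd for the AGPase large subunit. These values describe libraries that share film groups. The *P. qamdoensis* libraries among them also selected both genes, so a high r over the 18 libraries is partly built in. Within the 6 *P. schneideri* libraries under BF and GF, where the step to WF plays no part, Pearson's r was 0.801 (exact permutation p = 0.0486, adjusted p = 0.292 over the 6 pairs of members) and Spearman's rho 0.771 (exact permutation p = 0.103, adjusted p = 0.617). Without the 2 of these 6 libraries farthest from the median of the AGPase large subunit, r was 0.962, which rests on only the few libraries left. In the 6 *P. qamdoensis* colored-film libraries r was 0.878 and rho 1, given as a description. The other pairs of members had r between −0.16 and 0.40 over the 18 libraries.

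**Figure D4:**
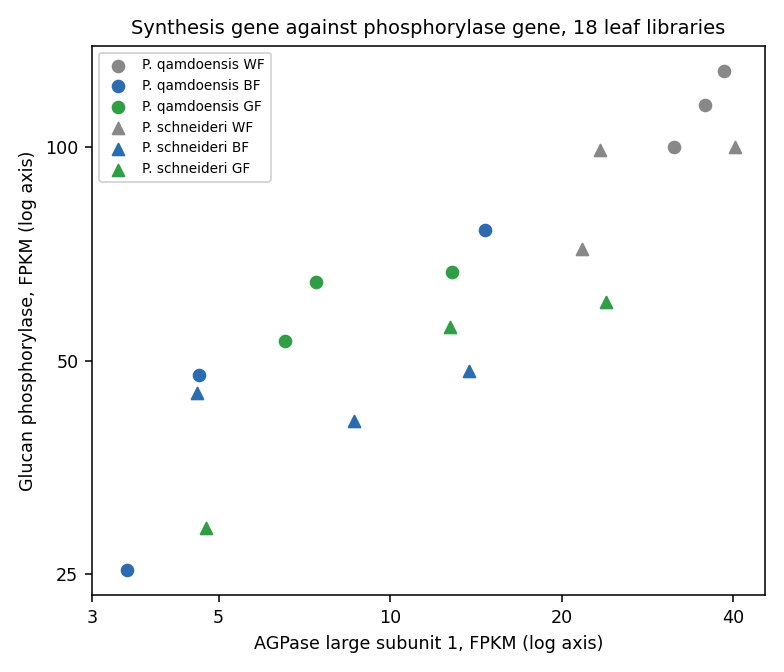
FPKM of glucan phosphorylase (vertical, log axis) against the AGPase large subunit (horizontal, log axis) in the 18 leaf libraries; circles are *P. qamdoensis*, triangles *P. schneideri*, and colors mark the films. WF libraries lie at the upper right, at 71.9 to 128 FPKM of glucan phosphorylase, and the lowest library of both genes is BF replicate 1 of *P. qamdoensis*, at 25.3 and 3.45 FPKM.

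Other genes close to each member by the same measure carry no name in the sources used here. For the AGPase large subunit the next was Pyun06G016730 (r = 0.892). For glucan phosphorylase they were Pyun08G014710 (r = 0.947) and Pyun13G000790 (r = 0.926). The AGPase large subunit was in rank 3 for glucan phosphorylase, but in rank 173 in *P. schneideri* alone. Isoamylase 2 was closest to Pyun12G009330 (r = 0.937) and Pyun08G020300 (r = 0.920), and pullulanase 1 to Pyun06G004150 (r = 0.917) and Pyun01G020410 (r = 0.912). In *P. schneideri* alone Pyun06G016730 ranked 91 for the AGPase large subunit, Pyun08G014710 and Pyun13G000790 ranked 100 and 30 for glucan phosphorylase, Pyun12G009330 and Pyun08G020300 ranked 9 and 96 for isoamylase 2, and Pyun06G004150 and Pyun01G020410 ranked 153 and 510 for pullulanase 1.

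The ratio of glucan phosphorylase to the AGPase large subunit varied with film in *P. qamdoensis*. Glucan phosphorylase was 3.32, 3.18 and 3.21 times the AGPase large subunit in the WF libraries of this species, 7.33, 10.3 and 5.22 times under BF and 8.71, 5.20 and 8.13 times under GF. The ratio was nearly the same in all 3 WF libraries, and all colored-film libraries lay above them. These values are a description, since the film contrasts of *P. qamdoensis* selected both genes. In *P. schneideri* the ratio was 3.31, 4.24 and 2.49 times under WF, 4.76, 9.83 and 3.52 times under BF and 6.10, 2.53 and 4.38 times under GF, and the films overlapped. The log2 ratio of AGPase large subunit to phosphorylase there was −1.71 ± 0.386 under WF, −2.45 ± 0.762 under BF and −2.03 ± 0.642 under GF (SD, n = 3). Exact two-sided permutation tests gave p = 0.2 for BF against WF, 0.4 for GF against WF and 0.5 for BF against GF, and 3 libraries against 3 cannot give a p below 0.1. The difference in log2 ratio rested on single libraries. For BF minus WF it was −0.75, and −0.32 without BF replicate 2 or −1.07 without BF replicate 3, and for GF minus WF it was −0.32, and −0.02 without GF replicate 1 or −0.66 without GF replicate 2.

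Between the debranching enzymes, isoamylase 2 was lower than pullulanase 1 in each of the 18 libraries. In *P. qamdoensis* the log2 ratio of isoamylase 2 to pullulanase 1 was −0.07, −0.62 and −1.40 under BF, −1.52, −1.76 and −2.16 under WF and −2.86, −2.69 and −2.75 under GF. These films did not overlap, with BF highest and GF lowest. The film contrasts of *P. qamdoensis* selected both genes, so this separation is partly built in and is a description. A difference between the species was not tested. In *P. schneideri* the mean log2 ratio was −1.56 ± 0.377 under WF, −1.94 ± 0.479 under BF and −2.20 ± 0.747 under GF (SD, n = 3), with overlapping films (exact permutation p = 0.2 for BF against WF, 0.3 for GF against WF and 0.7 for BF against GF).

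**Figure D5:**
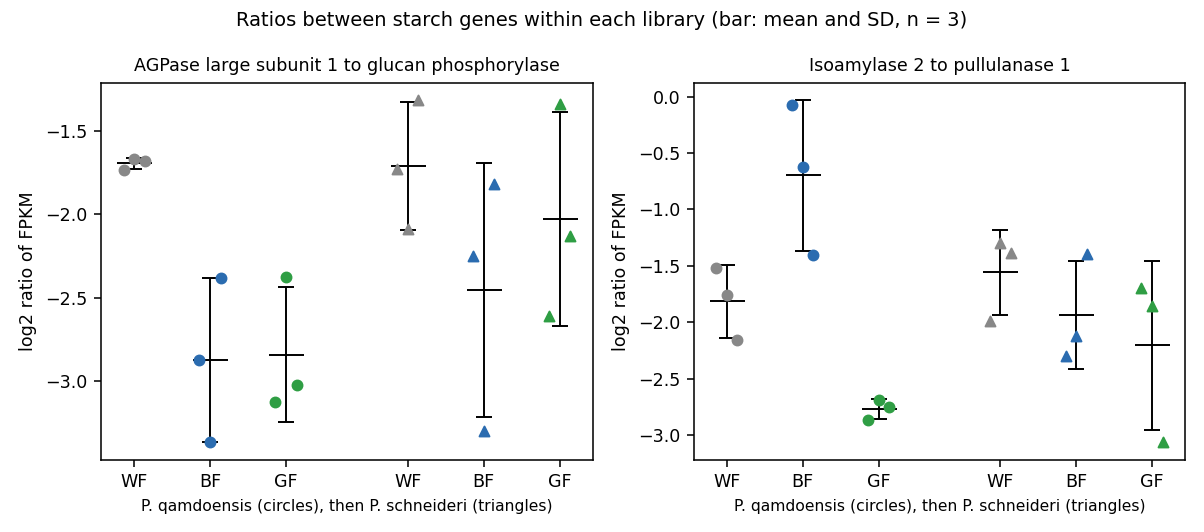
Log2 ratio of FPKM within each library (vertical axes) of AGPase large subunit to glucan phosphorylase and of isoamylase 2 to pullulanase 1, by film and species; points are libraries and bars give the mean and SD of 3. In *P. qamdoensis*, whose film contrasts selected these genes, the debranching ratio ran from −0.07 under BF to −2.86 under GF without overlap of films. In *P. schneideri* the films overlapped for both ratios, and a difference between the species was not tested.

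Averaged over films, pullulanase 1 was lower in *P. qamdoensis* than in *P. schneideri*. Its mean was 19.2 FPKM in *P. qamdoensis* and 27.4 FPKM in *P. schneideri*, a log2 difference of −0.53 (SE 0.105, limma adjusted p = 0.00123), and it was lower in *P. qamdoensis* under 3 of 3 films. An exact permutation of the species labels within films gave p = 0.004, unadjusted and one of 4 such tests. The libraries of *P. qamdoensis* in these tests are those whose film values selected the gene, and its low level under BF, 13.4 FPKM, enters the mean. By adjusted p alone 18.8% of all 24273 genes passed. The difference was smaller than 1.5-fold, so limma called 0 of 4 members between the species, against 11.1% of all genes. Under BF the ranges of pullulanase 1 were 11.3 to 14.9 FPKM in *P. qamdoensis* and 25.2 to 34.8 FPKM in *P. schneideri*, under WF they also did not overlap, and under GF they overlapped. The log2 species difference was −0.13 (SE 0.298, limma adjusted p = 0.791) for the AGPase large subunit, 0.25 (SE 0.180, adjusted p = 0.317) for glucan phosphorylase and −0.36 (SE 0.203, adjusted p = 0.206) for isoamylase 2. Reads of both species were compared to the genome of a further poplar, *P. yunnanensis*, so a difference in level and a difference in how well reads map cannot be told apart. Whether film differences of the 4 genes differ between the species was not tested, because the *P. qamdoensis* contrasts selected the genes.

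Other genes of sugar and starch turnover were summarised in *P. schneideri* beside the 4 members. Of 8 such enzymes (sucrose synthases, a sucrose-phosphate synthase, invertases, a trehalose-phosphate phosphatase and Pyun04G015050), 5 passed the filter on low values. For BF minus WF 2 of these were higher and 3 lower, with 3 at an unadjusted p under 0.05 and 0 called. For GF minus WF 2 were higher and 3 lower, with 2 at an unadjusted p under 0.05 and again 0 called. Of 34 other genes listed by the study under starch and sucrose metabolism, 25 were tested. For BF minus WF 18 of them were higher and 7 lower, with a median log2 difference of 0.20, 0 called and 8 at an unadjusted p under 0.05, unlike the AGPase large subunit and glucan phosphorylase, which were lower under BF. For GF minus WF 12 were higher and 13 lower, with a median of −0.01, 0 called and 2 at an unadjusted p under 0.05. The study chose these genes on its *P. qamdoensis* libraries. In the whole *P. schneideri* fit, 15.6% of genes reached that level of unadjusted p for BF minus WF and 12.1% for GF minus WF. The median log2 differences over that fit were −0.04 and −0.07. Only 0.0252% and 0.042% of its genes were called, so 0 calls in lists this short are not informative.

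A group of 6 photosynthesis genes, which the study chose between WF and GF in *P. qamdoensis*, moved with the AGPase large subunit in some libraries. All 6 were lower under BF than under WF in *P. schneideri* (median log2 difference −1.89, 0 called by limma, 6 at an unadjusted p under 0.05, against 15.6% of all genes). All 6 were also lower under GF than under WF there (median −0.95, 0 called, 0 at an unadjusted p under 0.05, against 12.1% of all genes). Their summed level ran from 148 to 179 FPKM under WF, from 21.4 to 40.9 FPKM under BF and from 31.8 to 270 FPKM under GF. The highest sum was in GF replicate 2, which also held the highest AGPase large subunit value under GF, 23.9 FPKM. Within WF of this species, however, replicate 1 held the highest sum, 179 FPKM, and the lowest AGPase large subunit value, 21.7 FPKM. In *P. qamdoensis* the sum was 27.9 FPKM in WF replicate 1 and 236 and 262 FPKM in the other WF libraries, while the AGPase large subunit was highest in WF replicate 1, at 38.6 FPKM. Their part in the result was not tested. The summed antenna genes ran from 440 to 925 FPKM under BF, from 328 to 431 under GF and from 284 to 395 under WF in *P. qamdoensis*, so that BF lay above the other films, and in *P. schneideri* they ran from 473 to 660 under BF, from 292 to 817 under GF and from 338 to 455 under WF. The part of these levels in the film differences of the starch genes was not tested either. Of 8 circadian rhythm genes that the study chose between WF and GF, limma called 0 in *P. schneideri*. Over all genes it called 0.0252% for BF minus WF and 0.042% for GF minus WF. Of the 8 genes, 5 had an unadjusted p under 0.05 for BF minus WF, against 15.6% of all genes, and 5 for GF minus WF, against 12.1%. The study's methods give no time of day for the leaf samples, and its part was not tested.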

How the data were processed

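Leaf RNA of 18 libraries was sequenced on the Illumina platform. After filtering, the authors compared the reads with the genome of *P. yunnanensis*, and they deposited 1 FPKM value per library for each of 39194 genes; the submitters' processing notes name HISAT2 and StringTie, with no version or role. Read depth per value is unknown, and the spread between libraries is the only measure of precision. All columns were matched to a library by their labels, and 0 columns had no sample. No gene sequence or genome position was used here.

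FPKM was used as log2(FPKM + 1), for genes whose mean reached 0.5 FPKM. The limma package (version 3.58.1, R 4.3.3) fitted 1 mean for each film in the 9 libraries of a species (6 group means over 18 libraries for the species difference), followed by eBayes with trend and Benjamini-Hochberg adjustment over all genes. Genes with an adjusted p below 0.01 whose fold change reached 1.5 were called. The added 1 makes fold changes of low genes smaller. The fit was tested on simulated data. Exact permutation tests and plots used scipy 1.17.1, pandas 2.3.3, numpy 2.4.6 and matplotlib 3.10.9 under Python 3.11.15.

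The members and lists were chosen with earlier results of these data known. Named genes are the 4 members, the second gene annotated as AGPase large subunit 1, other turnover enzymes only if called in *P. schneideri* (none was), and the 2 genes with the highest Pearson r with each member. Alternatives were a pseudocount of 0.1, no filter or a minimum of 5 FPKM, library weights, median-ratio scaling, quantile normalization, the replicate number as a block, eBayes without trend, the GC class as a term, an adjusted p below 0.05, only the libraries compared, 1 fit of 18 libraries and leaving out each library. A pseudocount of 1 for the ratio was added after seeing the data.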

Additional observations from a re-analysis of the deposited data

How the results depend on the processing

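The count of the 4 starch genes called in *P. schneideri* for BF minus WF was 0, but 1 (glucan phosphorylase) with library weights, 1 with only the 6 libraries compared, and 0 to 1 when single libraries were left out (1 without GF replicate 1). Over all genes of *P. schneideri*, the alternatives that kept every library of a comparison gave 2 to 304 calls for BF minus WF (6 in the main analysis), 2 to 98 for GF minus WF (10), 0 to 14 for BF minus GF (0) and 4 to 253 for the F test (7), each highest with library weights, and leaving out single libraries gave 1 to 48, 1 to 13, 0 to 1 and 1 to 23. In *P. qamdoensis*, leaving out single libraries gave 0 to 178 calls for BF minus WF (1) and 0 to 186 for BF minus GF (0). The species difference gave 1216 to 3289 calls (2696), fewest with a minimum of 5 FPKM, which tests fewer genes.

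Leaving out single libraries turned the direction of small differences in *P. schneideri*, none of them called. Pullulanase 1 ran from −0.14 to 0.0875 for BF minus WF. For BF minus GF the AGPase large subunit ran from −0.999 to 0.0589, glucan phosphorylase from −0.37 to 0.15, isoamylase 2 from −0.10 to 0.59 and pullulanase 1 from −0.013 to 0.21. The species difference of the AGPase large subunit ran from −0.31 to 0.040. The cause was not tested. The species difference of pullulanase 1 kept its direction and an adjusted p between 0.000694 and 0.00355 (limma) under every alternative run. All these alternatives used *P. qamdoensis* libraries whose film values selected the gene, so they cannot show how far that selection matters. Libraries of the same number did not deviate together (r from −0.280 to 0.103 in *P. schneideri* and −0.483 to 0.230 in *P. qamdoensis*). Whether they share a clonal line or anything else besides the number is not given. The replicate block called 6, 7 and 0 genes in the *P. schneideri* comparisons and 2590 between species, with 0 of 4 starch genes called in each.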
